A study of Mus musculus with 8 samples.

Results

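The acute phase proteins are plasma proteins whose output by the liver changes during inflammation. They were followed here through 10 genes chosen by symbol as markers of hepatic inflammation, namely Saa1, Saa2, Saa4, Orm1, Orm2, Hp, Hpx, Lcn2, Apcs and Crp. All 10 were present among the 24535 gene entries of RNA-seq and the 25033 of Ribo-seq, and all 10 passed the filter on low values in both assays (a mean RPKM of at least 1). Livers came from male C57BL/6 mice given a high-fat diet (45% kcal fat) from week 8 and collected at week 25. The HF group had the diet alone, and the HB group had the same diet with 2% (w/v) betaine, a methyl donor, in the drinking water. Each group had 6 mice and each assay had 2 libraries per group, HF1 and HF2, HB1 and HB2. For sequencing, the study selected the 2 mice nearest to the mean body weight in each group. The labels describe RNA pooled from several preparations, so replicates are counted as libraries and p-values measure the spread between libraries only. Mice without the high-fat diet were not analysed here, so all values compare 2 groups on that diet.

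RNA-seq measured polyadenylated mRNA. Ribo-seq measured ribosome-protected fragments (RPFs), or footprints, the stretches left after RNase digestion of mRNA that carries ribosomes. Both were deposited as RPKM, reads scaled by the length of the gene and the total of the library, and the ratio of RPF to mRNA RPKM is the translation efficiency (TE). The RNA-seq libraries held 11661207 to 22543472 reads on genes. The Ribo-seq libraries were far shallower, with 387980 reads in HF1, 1056546 in HF2, 257086 in HB1 and 141890 in HB2. On 1 kb of gene, 1 footprint was worth 2.58 RPKM in HF1, 0.946 in HF2, 3.89 in HB1 and 7.05 in HB2. Protein-coding genes held 92.9% to 93.8% of the recovered footprints in HF and 82.1% to 88.5% in HB. Hepatocyte markers summed to 47444 and 48775 mRNA RPKM in HF and to 55780 and 53988 in HB, and none of the 10 was listed at 0.

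In the acute phase response, cytokines such as interleukin 6 and interleukin 1 reach the hepatocyte and act through STAT3, NF-kB and C/EBP transcription factors. Positive acute phase genes are then transcribed more and negative ones, such as albumin and transthyretin, less. Serum amyloid A1 and A2 (Saa1, Saa2) are apolipoproteins of high-density lipoprotein that rise steeply in inflammation, whereas Saa4 is expressed constitutively. The pentraxins, serum amyloid P (Apcs) and C-reactive protein (Crp), bind exposed membranes and microbial surfaces, and in mice Apcs is the main acute phase pentraxin while Crp responds little. Orosomucoids (Orm1, Orm2) carry lipophilic compounds, haptoglobin (Hp) binds free haemoglobin, hemopexin (Hpx) binds haem, and lipocalin 2 (Lcn2) binds iron-loaded siderophores and is also made by neutrophils.

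Some of the genes, Saa1 with Saa2 and Orm1 with Orm2, are near-identical copies, which limits how their reads can be assigned. On GRCm38, Saa4 (chr7:46727998-46732603, minus strand), Saa1 (chr7:46740497-46742980, minus strand) and Saa2 (chr7:46751790-46754313, plus strand) are neighbours, with Saa1 and Saa2 facing away from each other across 8810 bases. The exonic transcripts of Saa1 and Saa2 were 93.9% identical, and those of Orm1 (chr4:63344560-63348163) and Orm2 (chr4:63362449-63365878) were 91.0% identical. At 28 bases, the approximate fragment size cut from the gel for Ribo-seq, 33.7% of the windows of Saa1, 31.1% of Saa2, 29.0% of Orm1 and 36.2% of Orm2 also occurred in transcripts of other genes. At 50 bases, the read length that the labels give for RNA-seq, while the methods of the study give a longer one, the shares were 14.8% for Saa1, 13.3% for Saa2, 20.4% for Orm1 and 22.7% for Orm2. For Saa4, Crp (chr1:172698055-172833031) and Hp (chr8:109575128-109579172) the shares at 28 bases were 3.73%, 3.06% and 0.835%. For Hpx (chr7:105591613-105600137), Lcn2 (chr2:32384633-32388252) and Apcs (chr1:172893961-172895041) they were 0%. How reads that fit several genes were assigned is not given in the sources used here, so the split between Saa1 and Saa2 and between Orm1 and Orm2 is uncertain for that share of their reads.

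RefSeq promoter sequences (GRCm38.p6) matched 8 of the 10 genes. The 250 bases upstream of the RefSeq start are shown for the 4 genes whose mRNA differed between the groups by the adjusted test below, and for Saa1, whose promoter is 94.8% identical to that of Saa2 although its mRNA did not pass the test. The RefSeq start of Lcn2 lies inside the GENCODE gene given above and that of Saa2 lies just inside its gene, so these windows overlap the gene coordinates. Capitals mark matches, on either strand, to TTGCNNAA, a simplified C/EBP motif.
Saa1 (chr7:46742981-46743230, minus strand): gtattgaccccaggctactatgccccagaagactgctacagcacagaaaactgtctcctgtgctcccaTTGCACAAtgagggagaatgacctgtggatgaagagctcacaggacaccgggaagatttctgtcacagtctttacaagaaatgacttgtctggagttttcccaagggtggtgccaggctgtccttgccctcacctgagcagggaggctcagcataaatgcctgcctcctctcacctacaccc
Saa2 (chr7:46751583-46751832, plus strand): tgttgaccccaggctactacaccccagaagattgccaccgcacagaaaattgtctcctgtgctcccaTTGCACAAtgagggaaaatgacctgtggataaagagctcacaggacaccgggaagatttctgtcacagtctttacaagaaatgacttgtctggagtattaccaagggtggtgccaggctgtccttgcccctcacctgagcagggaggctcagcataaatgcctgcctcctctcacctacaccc
Saa4 (chr7:46732604-46732853, minus strand): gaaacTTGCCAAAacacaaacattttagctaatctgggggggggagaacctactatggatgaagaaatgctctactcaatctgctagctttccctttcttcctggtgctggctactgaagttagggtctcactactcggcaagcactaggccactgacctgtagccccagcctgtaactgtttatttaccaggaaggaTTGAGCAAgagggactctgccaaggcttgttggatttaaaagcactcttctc
Lcn2 (chr2:32387740-32387989, minus strand): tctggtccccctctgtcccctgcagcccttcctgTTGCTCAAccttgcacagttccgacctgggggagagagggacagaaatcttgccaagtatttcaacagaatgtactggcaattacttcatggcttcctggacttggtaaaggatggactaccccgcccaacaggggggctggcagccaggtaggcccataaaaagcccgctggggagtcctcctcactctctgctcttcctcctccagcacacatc
Crp (chr1:172697806-172698055, plus strand): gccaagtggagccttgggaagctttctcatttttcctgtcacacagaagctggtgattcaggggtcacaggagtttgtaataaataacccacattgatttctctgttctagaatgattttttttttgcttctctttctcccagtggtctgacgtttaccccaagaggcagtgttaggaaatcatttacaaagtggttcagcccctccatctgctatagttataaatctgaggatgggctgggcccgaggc

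The match lay 182 to 175 bases before the start in Saa1 and 183 to 176 bases before it in Saa2. Saa4 held 2 matches, one of them ending 45 bases before the start, and Lcn2 held 1. Orm2 and Hpx also held 1 each, so that the letters were present in 6 of the 8 promoters, against 9.56% of 32851 mouse promoters of the same length. A STAT motif, TTCNNNGAA, was found in Apcs alone, against 7.02% of promoters. A simplified NF-kB motif, GGGA and CC with 4 bases between them (17.6% of promoters), and GTTAAT for HNF1 (6.43%) were in none of the 8. The motifs do not overlap each other in these windows, and a match only describes the letters.

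The mRNA of these genes did not move as a group. Saa2 and Crp rose in HB, Saa4 and Lcn2 were lower by the adjusted test alone, and the other 6 passed neither test. Calls were made with limma on log2(RPKM + 1), first with the thresholds of the study (more than 1 on the log2 scale in either direction, with p below 0.001 before adjustment), then with the same fold and a Benjamini-Hochberg adjusted p under 0.05. By the first rule, 2 of the 10 were higher and 0 lower, against 2.3% higher and 6.56% lower of all 10687 genes tested. By the second, 2 were higher and 2 lower, against 5.01% and 12.7% of all genes. Both HB values lay above both HF values for 3 genes and below them for 4, against 24.8% and 43.3% of all genes. The median log2 fold change of the 10 genes was close to 0, with 5 values above 0 and 5 below, and the median of all tested genes was -0.19.

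**Figure D1:**
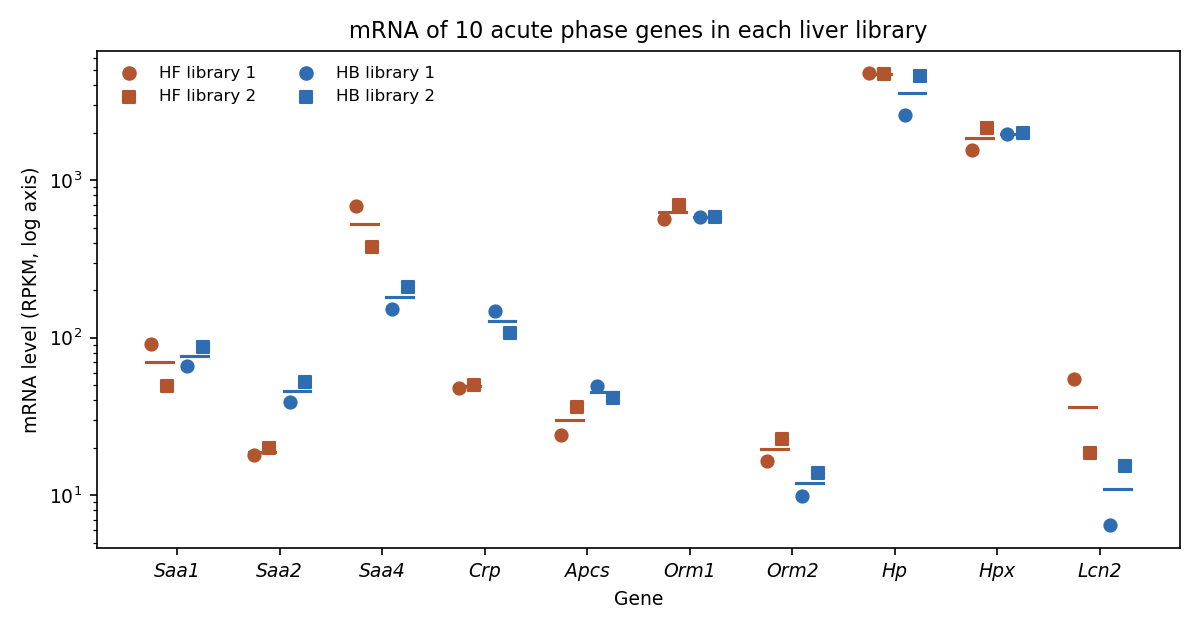
mRNA level in RPKM on a log axis for 10 acute phase genes (x axis) in each of the 4 RNA-seq libraries. Points are libraries, with HF in brown, HB in blue, circles for library 1 and squares for library 2, and bars are group means. Both HB points lie above both HF points for Saa2, Crp and Apcs and below them for Saa4, Orm2, Hp and Lcn2.

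Among the serum amyloid genes, Saa2 mRNA was at 18.0 and 19.8 RPKM in HF1 and HF2 and at 39.1 and 52.6 in HB1 and HB2. Each HB library was above each HF library, and the spread within a group was at most 1.34-fold. The log2 fold change was 1.22 (SE 0.26, adjusted p = 0.0107). Saa1 was at 91.1 and 49.5 RPKM in HF and at 66.4 and 86.7 in HB. Its groups overlapped and its HF libraries stood 1.84-fold apart, and the difference of 0.17 on the log2 scale (95% interval -0.55 to 0.90) did not pass the test. When the RPKM of Saa1 and Saa2 were added before the log, the difference was 0.47 (adjusted p = 0.262), a sum in which Saa1 has the larger part. Saa4 was at 681 and 379 RPKM in HF and at 151 and 210 in HB, a log2 fold change of -1.51 (SE 0.34, adjusted p = 0.0131). Its level in every HB library was below that in every HF library, yet its unadjusted p of 0.00137 missed the threshold of the study. Saa4 was thus the most abundant serum amyloid mRNA in each library, per length, and Saa2 the least abundant of the 3.

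Both pentraxins were higher in HB in every library. Crp was at 47.8 and 50.4 RPKM in HF and at 148 and 107 in HB, with HF values that differed by 1.05-fold. The log2 fold change was 1.34 (SE 0.27, adjusted p = 0.00900). Apcs was at 24.0 and 36.3 RPKM in HF and at 49.4 and 41.4 in HB. Its groups did not overlap, but the difference of 0.60 on the log2 scale (adjusted p = 0.137) did not pass either test.

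The orosomucoids, haptoglobin and hemopexin are the carriers of the list. Hp was the highest of the 10 in all 4 libraries, with 4764 and 4723 RPKM in HF and 2579 and 4597 in HB. HB1 alone was clearly below HF, and the difference of -0.46 (95% interval -1.28 to 0.36) did not pass the test. Hpx was at 1565 and 2150 RPKM in HF and at 1950 and 1984 in HB, with both HB values between the HF values. Orm1 was at 567 and 695 RPKM in HF and at 582 and 581 in HB, again within the HF range. Their log2 differences were 0.10 (95% interval -0.60 to 0.80) for Hpx and -0.11 (-0.73 to 0.51) for Orm1. Orm2 was far less abundant than Orm1, at 16.5 and 22.7 RPKM in HF and 9.86 and 13.9 in HB. Its groups did not overlap and the log2 difference was -0.68 (adjusted p = 0.0986). The sum of Orm1, Orm2 and Orm3 differed by -0.21 (adjusted p = 0.596).

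Lcn2 was at 54.7 and 18.4 RPKM in HF and at 6.45 and 15.4 in HB, a log2 fold change of -1.58 (SE 0.49, adjusted p = 0.0408). The groups did not overlap, but HF2 was only slightly above HB2, and the libraries within a group stood 2.97-fold and 2.38-fold apart. Without HF1 the difference was -0.82 (adjusted p = 0.228), and without HB1 it was -1.01 (adjusted p = 0.145). Neutrophil transcripts also differed between the groups. Their 14 markers summed to 14.5 and 65.3 RPKM in HF and 5.64 and 6.15 in HB, and of the 4 that passed the filter S100a8, S100a9, Cxcr2 and Csf3r were all lower by the adjusted test, as were 12.7% of all genes. Ly6g was listed at 0 in every RNA-seq library and the granule genes Mpo and Elane were below 1 RPKM. Footprints of the 14 markers summed to 16.1 and 19.6 RPKM in HF, 0 in HB1 and 42.3 in HB2, so the groups overlapped. The library with the most Lcn2, HF1, had 3.72 RPKM of S100a8 and HF2 had 32.4, so the order of the HF libraries was not the same for Lcn2 and for the markers. The part of neutrophils in the Lcn2 difference was not tested. In bulk tissue, fewer cells of a type and less RNA per cell cannot be told apart.

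The set of genes called varied when 1 library was left out, in fits where the remaining library of that group is assumed to vary like the other group. Without HF1, 0 of the 10 passed the thresholds of the study, and Saa2 then had a log2 fold change of 1.15 (SE 0.44, adjusted p = 0.0634) and Crp of 1.30 (SE 0.45, adjusted p = 0.0360), so that the SE grew more than the change fell. Without HF2, the genes that passed were Saa4 and Lcn2. Without HB2, they were Saa4 and Crp. The direction of Saa2, Saa4, Lcn2 and Crp was kept in each of these fits, with log2 fold changes of 1.01 to 1.43 for Saa2, -1.93 to -1.08 for Saa4, -2.33 to -0.82 for Lcn2 and 1.11 to 1.57 for Crp. Leaving out the filter on low values gave 0 calls, with the same fold changes and larger p-values. The adjusted p-values in limma were then 0.0550 for Saa2 and Crp, 0.0723 for Saa4 and 0.167 for Lcn2. None of these genes passed the adjusted test in that fit.

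The 10 genes together took 1.08% of the reads in HF1, 1.11% in HF2, 0.750% in HB1 and 1.03% in HB2. Hp and Hpx were ranked first and second of the 10 in every library, and Hp stood between place 14 and place 27 among all mRNAs. The share was lowest in HB1, the library in which Hp was lowest.

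At the level of ribosome footprints, no difference was found among the well-covered genes of the list. Only Orm2 passed the thresholds of the study for RPF (the same fold with p below 0.05 before adjustment), with 1 of 10 lower and 0 higher, against 7.86% lower and 1.58% higher of all 11190 genes. Orm2 had 2 footprints in HF1, 2 in HF2 and 0 in both HB libraries. All of these are at or under 3 reads, so no fold is given and the depth could not show a difference. Orm2 was also the only gene of the 10 with both HB values below both HF values, and 0 had them above, against 33.2% and 9.07% of all genes. With adjusted p-values, 0 of the 10 and 0 of all genes passed in limma. In the voom alternative on recovered reads 0 of the 10 passed the unadjusted threshold.

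**Figure D2:**
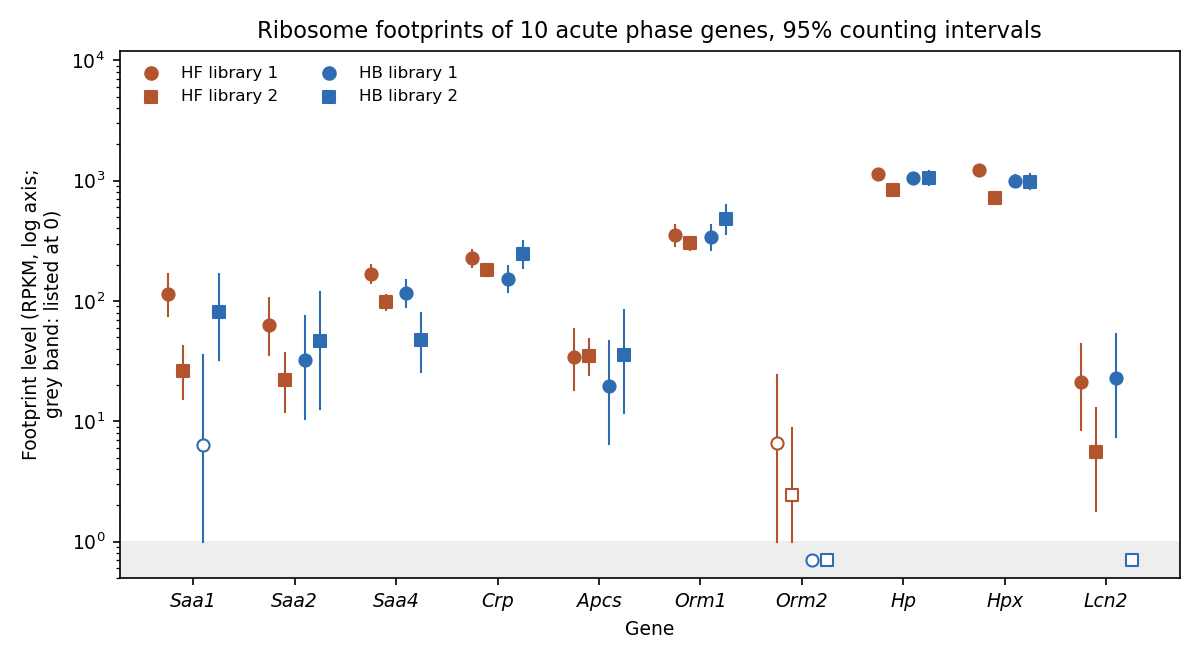
RPF level in RPKM on a log axis for the same 10 genes (x axis) in each Ribo-seq library. Colours and shapes are as for the mRNA plot, vertical lines are exact 95% Poisson intervals of the footprint counts, drawn down to 1 RPKM, open symbols rest on 3 reads or fewer, and the grey band holds libraries listed at 0. Hp, Hpx, Orm1 and Crp have narrow counting intervals, while Saa1, Saa2, Orm2, Lcn2 and Apcs rest on few footprints.

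Crp, whose mRNA rose, had 228 and 179 RPKM of footprints in HF and 153 and 245 in HB, from 150, 322, 67 and 59 reads. HB1 was the lowest and HB2 the highest library, and the log2 difference was -0.06 (95% interval -0.95 to 0.83). Saa2 had 63.7 and 21.8 RPKM in HF and 32.0 and 46.4 in HB, from 15, 14, 5 and 4 reads. Both HB values lay between the HF values, and the 95% interval of the log2 difference, -1.49 to 1.57, includes a change as large as that of its mRNA. Saa4 had 168 and 97.4 RPKM in HF and 117 and 47.0 in HB, from 137, 216, 63 and 14 reads. HB2 was the lowest, but HB1 lay between the HF libraries, and the difference of -0.78 (adjusted p = 0.653) did not pass. Without HB1 it was -1.43 (unadjusted p = 0.0337, adjusted p = 0.153), without HB2 it was -0.13, and a common sum gave -1.64.

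Saa1 footprints were at 114 and 26.4 RPKM in HF and 6.39 and 81.0 in HB, where HB1 held 1 read (95% Poisson interval 0.162 to 35.6 RPKM) and HB2 held 7. Lcn2 footprints were at 21.2 and 5.55 RPKM in HF and 22.8 and 0 in HB, from 7, 5, 5 and 0 reads, and a count of 0 in HB2 still allows up to 24.8 RPKM at 3 reads. Neither gene can be compared at this depth. Such intervals and floors cover counting error only, and the methods of the study name no removal of PCR copies. Apcs had 34.1 and 34.6 RPKM in HF and 19.8 and 35.8 in HB, the HB values resting on 5 reads each, with a log2 difference of -0.35 (95% interval -1.42 to 0.71).

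Among the carriers, Hp had 1140 and 835 RPKM in HF and 1044 and 1053 in HB, from 595, 1187, 361 and 201 reads. Hpx had 1236 and 713 RPKM in HF and 999 and 981 in HB, and Orm1 had 351 and 303 in HF and 340 and 479 in HB. The HB values of Hp and Hpx lay within the HF range, and those of Orm1 reached above it only in HB2. The log2 differences were 0.10 (95% interval -0.68 to 0.89) for Hp, 0.08 (-0.87 to 1.03) for Hpx and 0.31 (-0.47 to 1.09) for Orm1. The intervals are wide, so these genes are not shown to be equal between the groups. The median RPF difference of the 10 genes was -0.21, against -0.43 for all genes. Their share of the footprints was 0.454% in HF1, 0.299% in HF2, 0.371% in HB1 and 0.387% in HB2, with both HB values within the HF range.

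Translation efficiency did not pass the thresholds of the study (more than 2 on the log2 scale, with p below 0.05 before adjustment) for any of the 10 genes, with 0 higher and 0 lower, against 1.49% higher and 4.6% lower of 9455 genes. The ratios match RNA-seq and Ribo-seq libraries by group and number, and whether these share animals is not given in the sources used here. Across genes, the deviations of matched libraries from their group means had a correlation of -0.00239 in HF and -0.0774 in HB, and with the numbers crossed 0 of the 10 passed as well. In limma, 1 of the 10, Crp, had an unadjusted p under 0.05, and 0 calls were also made in the interaction model over all libraries. Crp had a TE of 4.76 and 3.56 in HF and 1.04 and 2.29 in HB. Both HB values were below both HF values, with a log2 change of -1.40 (95% interval -2.78 to -0.02, unadjusted p = 0.0478, adjusted p = 0.405). Without HB1 the change was -0.83 (adjusted p = 0.225) and without HB2 it was -1.97 (adjusted p = 0.0351), and a common sum gave -2.23. Its mRNA was 2.60-fold higher in HB at footprints of 0.978-fold. Saa2 showed the same arrangement of values, with a TE of 3.54 and 1.10 in HF and 0.819 and 0.883 in HB, but its log2 change of -1.18 (adjusted p = 0.519) rested on 4 to 15 footprints per library. Apcs also had both HB values, 0.400 and 0.865, below both HF values, 1.42 and 0.955, with an adjusted p of 0.582. Counting Orm2, 4 of the 10 had TE values in HB below those in HF and 0 had them above, against 31.9% and 13.2% of all genes.

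**Figure D3:**
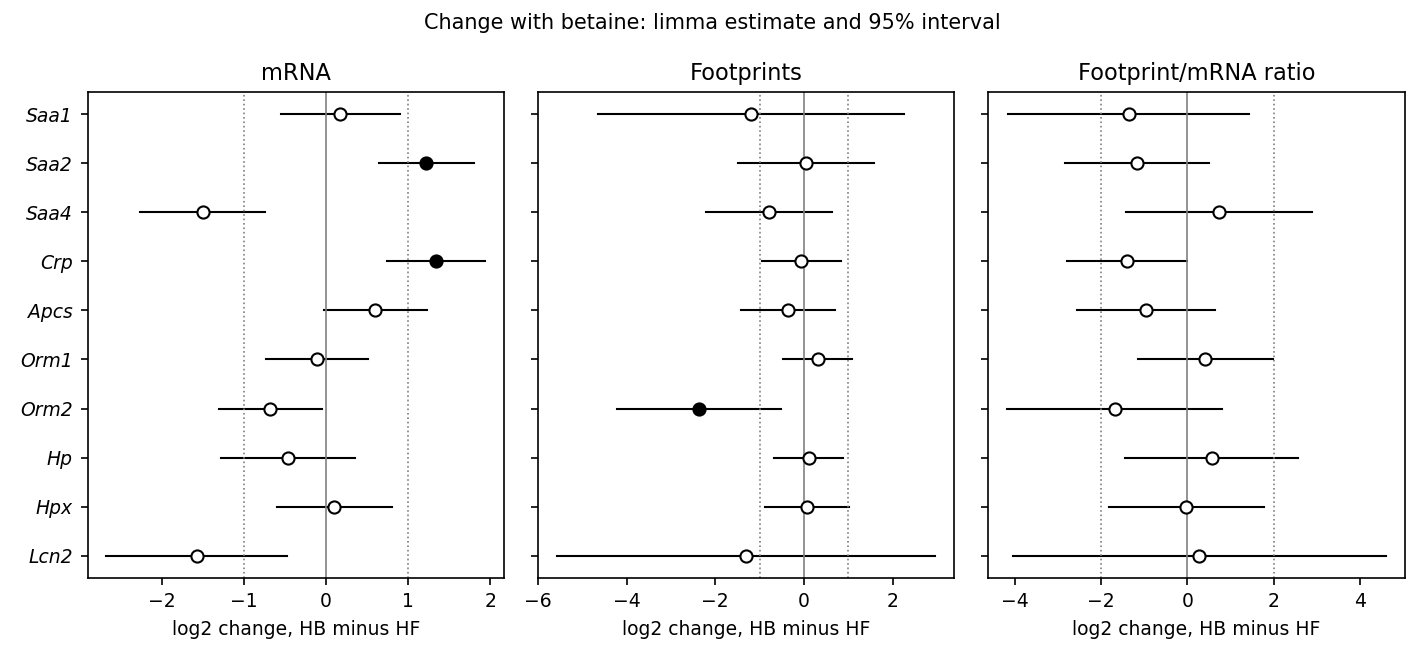
Log2 change from HF to HB (x axis) of mRNA, RPF and the RPF to mRNA ratio for 10 acute phase genes (y axis). Points are limma estimates on log2(RPKM + 1), lines are 95% intervals, filled points passed the thresholds of the study and dotted lines mark the fold threshold. The mRNA intervals of Saa2, Crp, Saa4, Lcn2 and Orm2 do not include 0, and the filled RPF point of Orm2 rests on 2, 2, 0 and 0 footprints.

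For the remaining genes the TE values of the groups overlapped. Hp was translated at a low ratio, 0.239 and 0.177 in HF and 0.405 and 0.229 in HB, while it had the most mRNA. Hpx was at 0.790 and 0.332 in HF and 0.512 and 0.494 in HB, and Orm1 at 0.618 and 0.435 in HF and 0.583 and 0.825 in HB. In HF1 and HF2 the highest ratio of the 10 belonged to Crp. Saa4 was at 0.247 and 0.257 in HF and at 0.772 and 0.223 in HB, the HB1 value being the one above HF under this matching. Saa1 ranged from 0.0962 to 1.25 and Lcn2 from 0 to 3.54 over the libraries. For the 10 genes the recovered lengths behind the RPKM of both assays were nearly the same. The Ribo-seq length was chosen partly for closeness to annotated transcripts and to the RNA-seq length, so this likeness is no check. The ratio says nothing about protein levels.

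Other positive acute phase genes, 28 of them, were also divided. Of the 26 tested in mRNA, 1 was higher and 2 lower by the thresholds of the study, and 4 were higher and 7 lower by the adjusted test, with a median of -0.01. The shares of all genes were 2.3% higher and 6.56% lower by the first test, and 5.01% and 12.7% by the second. Il1r1, the receptor of interleukin 1, fell from 89.1 and 71.6 RPKM in HF to 5.27 and 11.6 in HB, with a log2 fold change of -3.18 (SE 0.34, adjusted p = 0.00493). Orm3, the third orosomucoid of the cluster, fell from 65.7 and 21.9 RPKM to 5.22 and 6.15 (log2 fold change -2.55, SE 0.43, adjusted p = 0.00581), whereas Orm1 beside it stayed within the HF range. Mbl2, a mannose-binding lectin that starts the complement cascade, rose from 154 and 179 RPKM to 402 and 428 (log2 fold change 1.31, adjusted p = 0.00915). Among genes chosen after their values were seen, Saa3, a further serum amyloid gene, was at 21.2 and 16.2 RPKM in HF and 4.85 and 11.4 in HB (adjusted p = 0.0333). The iron hormone hepcidin, Hamp, was at 5918 and 8675 RPKM in HF and 2112 and 2859 in HB (log2 fold change -1.54, adjusted p = 0.0136). The metallothionein Mt1 was at 1348 and 476 RPKM in HF and 29.6 and 285 in HB (log2 fold change -3.10, adjusted p = 0.0259). On the other side, also chosen after their values were seen, C9 of the complement attack complex was at 13.2 and 21.8 RPKM in HF and 88.3 and 39.4 in HB (log2 fold change 1.74, adjusted p = 0.0124). The fibrinogen chain Fgg was at 479 and 444 RPKM in HF and 1200 and 814 in HB (adjusted p = 0.0262), and Steap4, a metalloreductase, at 14.3 and 19.2 in HF and 50.7 and 27.6 in HB (adjusted p = 0.0297). Libraries came in the same order for Mt1 as for Saa4 and Lcn2, HF1 highest and HB1 lowest.

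In RPF, 2 of 27 of these genes were lower and 0 higher, against 7.86% and 1.58% of all genes. Vnn1, the pantetheinase vanin 1, had 116 and 95.2 RPKM of footprints in HF and 22.5 and 35.0 in HB (log2 fold change -1.87, adjusted p = 0.493), from 109, 243, 14 and 12 reads. In TE, 3 of 26 were higher and 1 lower, against 1.49% and 4.6% of all genes, with Saa3 at 0.459 and 0.110 in HF and 3.02 and 3.51 in HB (log2 change 3.41, adjusted p = 0.328). The read numbers and the length behind the Ribo-seq RPKM of Saa3 were not settled by the steps of its values, and the ratio may rest on unlike lengths in the assays, so it is not compared with the others. Mt1 had a TE of 0.0706 and 0.0404 in HF and 1.21 and 0.410 in HB (log2 change 3.68, adjusted p = 0.334). Hamp, with less mRNA in HB, had 63.5 and 443 RPKM of footprints in HF and 1092 and 625 in HB, from 10, 190, 114 and 36 reads (log2 difference 2.29, adjusted p = 0.519). Its TE was 0.0107 and 0.0511 in HF and 0.517 and 0.219 in HB (log2 change 3.83, unadjusted p = 0.0219, adjusted p = 0.364).

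The negative acute phase genes had 11 of 15 mRNA differences above 0. Of the 15, 0 were higher and 1 lower by the thresholds of the study, and 2 were higher and 2 lower by the adjusted test, with a median of 0.24 against -0.19 for all genes, beside the same shares of all genes called. Igf1, the insulin-like growth factor made by the liver, fell from 198 and 158 RPKM in HF to 71.2 and 73.7 in HB (log2 fold change -1.28, SE 0.26, adjusted p = 0.00931). Transferrin, Trf, was at 1901 and 2281 RPKM in HF and 4878 and 4094 in HB (adjusted p = 0.0307). The retinol carrier Rbp4 was at 2358 and 3033 RPKM in HF and 4805 and 5988 in HB (adjusted p = 0.0480), and Fetub, a fetuin, was at 630.1 and 751 in HF and 246 and 406 in HB (adjusted p = 0.0295). These 3 genes were chosen after their values were seen. In RPF and TE, 0 of the 15 passed. Of all genes, 1.58% were higher and 7.86% lower in RPF, and 1.49% and 4.6% in TE.

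**Figure D4:**
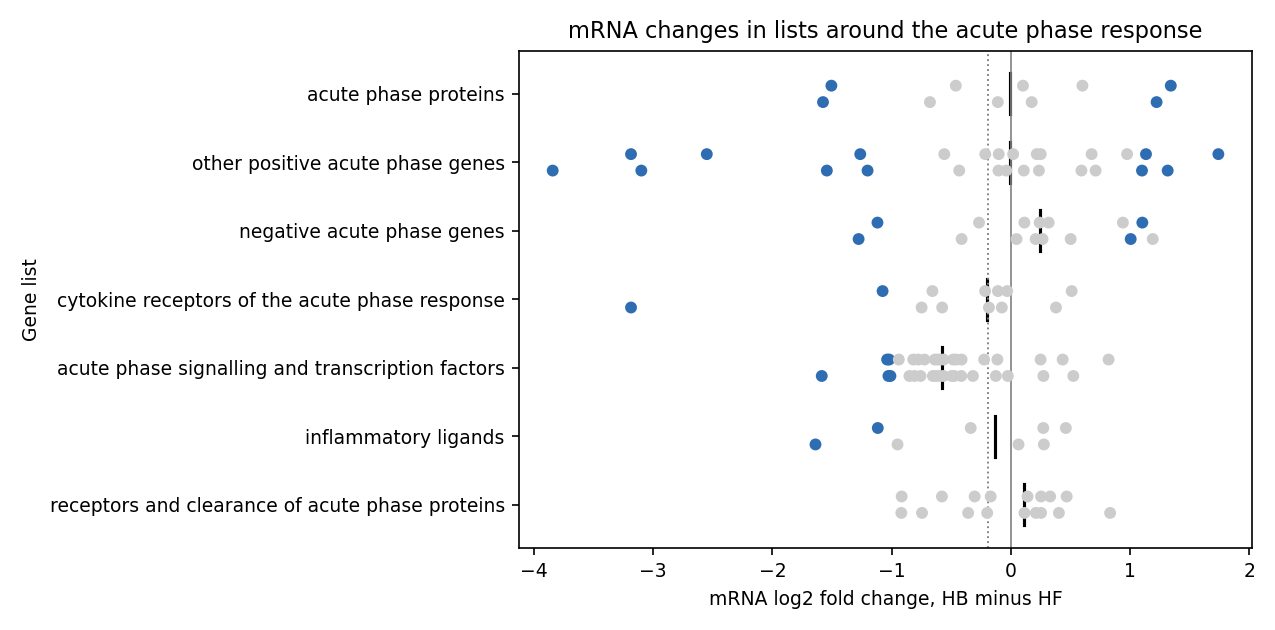
mRNA log2 fold change from HF to HB (x axis) of each tested gene in 7 lists around the acute phase response (y axis). Points are genes, blue where the change was beyond 1 with an adjusted p under 0.05, black bars are list medians, the solid line is 0 and the dotted line is the median of all tested genes. The list of signalling and transcription factors has its median at -0.58, and the 10 acute phase genes have points on both sides of 0.

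Upstream of the acute phase genes, 8 of 20 inflammatory ligands passed the filter in mRNA, and Il6 was listed at 0 in all 4 libraries. Cxcl1, a neutrophil-attracting chemokine, fell from 16.2 and 19.6 RPKM in HF to 4.44 and 5.71 in HB (log2 fold change -1.64, SE 0.26, adjusted p = 0.00526), the only call by the thresholds of the study, which 6.56% of all genes passed as lower. Il1a was the other gene that passed the adjusted test, also lower, against 12.7% of all genes. In RPF, Ccl2, Ccl5 and Cxcl10 passed the unadjusted threshold on 1 to 3 footprints in each HF library and 0 in HB, all at the floor, as 3 of 10 tested against 7.86% lower of all genes. In TE, Cxcl10 was the 1 gene of 8 tested that was called lower, on the same footprints, against 4.6% of all genes.

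Of 13 cytokine receptors, 12 were tested in mRNA and Il1r1 was the only call, with Osmr, the oncostatin M receptor, lower by the adjusted test as well, against 6.56% and 12.7% of all genes by these tests. The receptor of interleukin 6, Il6ra, was at 5.41 and 6.12 RPKM of mRNA in HF and 4.35 and 6.67 in HB, with overlapping groups. Its footprints were at 40.5 and 17.7 RPKM in HF and 4.61 and 8.36 in HB, from 53, 63, 4 and 4 reads (log2 fold change -1.94, unadjusted p = 0.0229, adjusted p = 0.493), 1 of 11 receptors called lower in RPF against 7.86% of all genes. Tnfrsf1a, a receptor of tumour necrosis factor, had a TE of 2.57 and 2.17 in HF and 1.02 and 0.127 in HB (log2 change -2.51, adjusted p = 0.387), 1 of 11 called lower in TE against 4.6% of all genes.

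Signalling and transcription factors of the response had a median mRNA difference of -0.58, against -0.19 for all genes, with 31 of 36 values below 0. Of these, 1 passed the thresholds of the study and 5 the adjusted test, all lower, while 0 were higher. Of all genes, 6.56% and 12.7% were lower by these tests, so the share of calls in the list is near or under that of all genes. Nfkbiz, a nuclear cofactor of NF-kB induced by interleukin 1, fell from 16.2 and 11.3 RPKM in HF to 3.31 and 4.45 in HB (log2 fold change -1.59, SE 0.28, adjusted p = 0.00646). Socs3, the feedback inhibitor of STAT3 signalling, passed the adjusted test, with 7.02 and 8.44 RPKM in HF and 2.33 and 4.61 in HB (log2 fold change -1.01, adjusted p = 0.0345). The others that passed it were Ikbkb, Creb3l3 and Tab1, all named after their values were seen. Cebpb, a C/EBP factor, was at 414 and 328 RPKM in HF and 148 and 247 in HB but missed both tests (log2 fold change -0.94, adjusted p = 0.0519). In RPF 4 of 35 were lower, against 7.86% of all genes. Ptpn11 was at 30.8 and 23.8 RPKM in HF and 9.73 and 13.8 in HB (adjusted p = 0.493). Fos and Nfkb2, also among the 4, had 3 to 10 footprints per HF library and 0 in HB. Both passed the filter through HF alone and were under the floor of 3 reads in HB, so the depth could not show a difference.

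Of the receptors and clearance genes of acute phase proteins, 0 of 17 passed either mRNA test, against 2.3% higher and 6.56% lower of all genes by the thresholds of the study and 5.01% and 12.7% by the adjusted test. In RPF 1 of 16 was called lower, against 7.86% of all genes, and in TE 2 of 14 were, against 4.6%. Ly96, a partner of Toll-like receptor 4, had 5 and 8 footprints in HF and 0 in both HB libraries. It was called lower in RPF and TE without adjustment. Ly96 passed the RPF filter through HF alone, and its HB counts are under the floor of 3 reads, so no fold is given. The Fc receptor Fcgr4, the other gene called in TE, had a TE of 4.01 and 1.06 in HF and 0.664 and 0 in HB (adjusted p = 0.404). Macrophage and Kupffer cell markers summed to 198 and 251 mRNA RPKM in HF and 347 and 333 in HB, and of 13 markers 1 passed the thresholds of the study and 4 the adjusted test, all higher, against 2.3% and 5.01% of all genes. In RPF 11 of 13 had differences below 0 and 1 was called lower (7.86% of all genes). The median was -0.44, against -0.43 for all genes. Footprints of the 13 summed to 365 and 277 RPKM in HF, 395 in HB1 and 157 in HB2, so the groups overlapped. Markers listed at 0 numbered 0 in HF1 and HF2, 1 in HB1 and 3 in HB2, the shallower libraries. In TE 12 of 13 were below 0 and 2 were called lower (4.6% of all genes), with a median of -1.57 against -0.35. Of the endothelial and stellate cell markers, all 9 tested were below 0 in RPF, with 2 called lower (7.86% of all genes) and a median of -1.18 against -0.43. All 9 were also below 0 in TE, with 1 called lower (4.6% of all genes) and a median of -1.11 against -0.35. In mRNA, 5 of 10 were above 0 and 0 were called (2.3% of all genes higher and 6.56% lower). Their footprints summed to 272 and 222 RPKM in HF and 199 and 136 in HB. Of these markers, 0 were listed at 0 in HF1 and HF2, 1 in HB1 and 3 in HB2, again the shallower libraries. The part of these cells in the differences of the acute phase genes was not tested. Of the cholangiocyte markers, 0 of 3 were called in mRNA and 0 of 3 in RPF. Of the lymphocyte markers, 0 passed the filter in mRNA and 0 of 3 were called in RPF. Of all genes, 2.3% were called higher and 6.56% lower in mRNA, and 1.58% and 7.86% in RPF. Of 4 adipocyte markers, 1 was called higher in RPF and 1 in TE (1.58% and 1.49% of all genes), and in mRNA 1 passed the adjusted test as higher and 1 as lower (5.01% and 12.7%). Among hepatocyte markers, 0 of 10 passed in mRNA, RPF or TE. Calls over all genes were 2.3%, 1.58% and 1.49% higher and 6.56%, 7.86% and 4.6% lower, in that order. Erythroid markers summed to 675 and 523 mRNA RPKM in HF, 738 in HB1 and 2249 in HB2, and all 5 tested were above 0, with 1 called higher and 3 by the adjusted test (2.3% and 5.01% of all genes). Their footprints summed to 1113 and 617 RPKM in HF, 2559 in HB1 and 381 in HB2, while Hp and Hpx mRNA in HB2 were at 4597 and 1984 RPKM, close to the HF values.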

How the data were processed

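RNA-seq and Ribo-seq of mouse liver were compared between the HF and HB groups, with 2 libraries per group and assay. Per the authors' methods, FANSe2 placed the reads on mm10, and the values deposited for each library are RPKM by gene symbol. The region over which footprints were counted is not given in the sources used here. The authors' differential test needs counts, so limma (version 3.58.1, R 4.3.3) was fitted on log2(RPKM + 1), with a moderated variance trend, the group as only term and two-sided p-values, to all genes averaging 1 RPKM or more. This scale understates the fold changes of low genes. TE was log2((RPF RPKM + 1)/(mRNA RPKM + 1)) between libraries of the same group and number, and the printed TE levels have no added constant.

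Library totals and reads were recovered from the steps of 1 read in the low RPKM values. Of the 600 lowest values in a library, 80% to 86.2% in RNA-seq and 92% to 96.3% in Ribo-seq gave a whole gene length, within 0.1 bases, at 1 read. A length was then sought for each entry at which the reads of all libraries came out whole, within 0.03 reads at low and up to 0.25 at high counts, and one was found for 16756 of 16758 entries above 0 in RNA-seq and 14556 of 14558 in Ribo-seq. As the length was chosen to give whole reads, these shares are no check of the reads, whose sums came to 103.5% to 106.3% and 100.0% to 100.5% of the totals. Reads served for floors (3 reads), Poisson intervals and the voom alternative. In RNA-seq, 24535 entries with a unique symbol were used. Coordinates and transcripts are from GENCODE M21 (GRCm38).

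The 10 genes, the other 14 lists and the tests were chosen with earlier results of these data known. All 10 genes are named, and from each list the genes called in mRNA, RPF or TE with non-overlapping groups, at most 3 per list and measure, smallest p first. Results for 1 gene that this rule selects are not reported here. Marker genes are named where a result of the 10 turns on them. The steps were tested on simulated data. Alternatives were other pseudocounts, filters and scalings, no variance trend, a replicate block, adjusted p, each library left out, added paralogs, voom, an interaction model and crossed TE numbers. Protein-coding scaling and a crossed block were chosen after seeing the data. The labels give 25 weeks on the diet and the methods 17.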

Additional observations from a re-analysis of the deposited data

How the results depend on the processing

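By the thresholds of the study, 2 of the 10 genes were called in mRNA (Saa2 and Crp), 1 in RPF (Orm2) and 0 in TE. In mRNA the count was 0 without a filter, 4 with an adjusted p (Saa2, Crp, Saa4, Lcn2), 3 with a common sum (Saa4 added), and 1 (Crp) with added paralogs, with voom or with protein-coding scaling. Leaving out each library gave 0 to 2. With added paralogs, Saa2 and Orm2 were part of sums and not tested singly. In RPF it was 0 with a mean RPKM of at least 5, with an adjusted p, with added paralogs and with voom. It was 2 (Orm2 and Apcs) with a common sum. Orm2 did not pass the filter with a mean RPKM of at least 5 or without HF1, so it was not retested there. Leaving out each library gave 0 (without HF1) to 3 (Saa4, Orm2 and Lcn2, without HB1), when 480 of all 11165 genes were called higher and 2517 lower. In TE it was 1 with a pseudocount of 0.1 (Orm2) or a common sum (Crp), and 0 to 2 with a library left out (Lcn2 without HB1, Saa1 and Lcn2 without HB2). No alternative turned the direction of Saa2, Saa4, Lcn2 or Crp in mRNA. The cause of these changes was not tested.

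The replicate block gave 4 calls in mRNA, 1 in RPF and 0 in TE, and 498 higher and 1229 lower over all genes in mRNA against 246 and 701 without it. Same-numbered HF and HB libraries had deviations that correlated at -0.10 in mRNA and -0.01 in RPF across genes, so the numbers are not taken to pair the samples. With the numbers crossed in the replicate block, chosen after seeing the data, mRNA calls were 4 of the 10, and 474 higher and 1303 lower over all genes.

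The reversals were among differences that passed no test with all libraries. Of them Lcn2 TE, with a footprint count of 0 in HB2, was called lower without HB1 and higher without HB2. A common sum moved the RPF median of all genes from -0.43 to -1.19 and the TE median from -0.35 to -1.03, and turned RPF to -0.81 (Saa2), -0.57 (Orm1), -0.77 (Hp) and -0.80 (Hpx), and TE to -0.093 (Saa4), -0.41 (Orm1), -0.26 (Hp) and -0.19 (Lcn2). A common median, which moved the mRNA median of all genes from -0.19 to 0.08, turned Orm1 mRNA to 0.16, Crp RPF to 0.27 and Hpx TE to 0.050. Protein-coding scaling turned Crp RPF to 0.067 and Hpx TE to 0.14. Voom turned Lcn2 RPF to 0.26, and a pseudocount of 0.1 turned Lcn2 TE to -1.19. With a library left out, mRNA ran from -0.26 to 0.61 (Saa1), -0.26 to 0.036 (Orm1) and -0.13 to 0.33 (Hpx). RPF ran from -2.93 to 0.54 (Saa1), -0.71 to 0.79 (Saa2), -0.12 to 0.33 (Hp), -0.32 to 0.47 (Hpx), -3.59 to 0.98 (Lcn2), -0.77 to 0.059 (Apcs) and -0.40 to 0.28 (Crp). TE ran from -2.91 to 0.18 (Saa1), -0.16 to 1.61 (Saa4), -0.65 to 0.60 (Hpx) and -2.58 to 3.13 (Lcn2). Over all genes, mRNA calls were 77 higher and 188 lower with no filter, 540 and 291 with a common median, 503 and 1055 without HB2 and 535 and 1353 with an adjusted p, and RPF calls included 42 and 2816 with a common sum. Depth limits RPF and TE of Saa1, Saa2, Orm2, Lcn2 and Apcs, which had 5 or fewer footprints in at least 1 HB library.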
